A study of Mus musculus with 14 samples.

Results

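Chromatin at 9 trophoblast regulator genes was examined in mouse embryonic stem cells before and after knockdown of Smarcb1. The genes were Cdx2, Elf5, Tfap2a, Tfap2c, Gata2, Gata3, Hand1, Krt8 and Krt18, taken by name, and all 9 were among the 21938 protein-coding genes that GENCODE M21 annotates on chromosomes 1 to 19, X and Y of GRCm38. The cells were 81K1, a single clone made from OG2 stem cells, whose Rosa26 locus carries a doxycycline-inducible shRNA against Smarcb1. Untreated 81K1 cells (control) were compared with 81K1 cells given 1 µg/ml doxycycline and harvested after 72 h (kd), so that both groups carried the shRNA cassette. The study's 14 samples comprised 10 immunoprecipitated libraries, 1 per condition for each of 5 antibodies (Smarca4, Ezh2, H3K27me3, H3K27ac and H3K4me3), and 4 inputs. The data are lists of called regions, so read depth is not known for any library. With 1 library per antibody and condition there was no replicate spread, no test between conditions was made, and the absence of a call was not taken as an absence of signal. The methods name Active Motif for the Smarca4 and H3K27me3 libraries and a core facility for the others, whereas the labels name that facility for all of them, so differences between antibodies and between places of preparation cannot be told apart.

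The trophoblast is the outer lineage of the blastocyst, which gives rise to the placenta and which embryonic stem cells normally do not form. Cdx2, the GATA factors and the AP-2 factors (Tfap2a, Tfap2c) promote the trophoblast program, Elf5 helps to maintain trophoblast stem cells, and Hand1 acts in trophoblast giant cells. Krt8 and Krt18 encode partner keratins of simple epithelia such as the trophectoderm. Ezh2 is the catalytic subunit of Polycomb repressive complex 2 and places H3K27me3, a mark of repressed genes. H3K4me3 marks gene starts, H3K27ac marks active promoters and enhancers, and a start with both H3K4me3 and H3K27me3 is called bivalent. Smarca4 is the ATPase of esBAF, the remodelling complex of stem cells, of which Smarcb1 is a core subunit.

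The labelled cell type was checked with marker genes. All 8 stem cell markers, among them Pou5f1, Nanog and Sox2, had an H3K4me3 island at a start in both conditions, and 7 in control and 8 after kd had an H3K27ac island there. By contrast, the 9 markers of other cell types, such as Sox17, Mixl1 and Col1a1, had H3K27me3 at a start in both conditions and H3K27ac at none. The other marks separated the lists less sharply. H3K4me3 lay at a start of 6 of these 9 in control and 8 after kd, and H3K27me3 at a start of 2 stem cell markers in control and 1 after kd. The Smarcb1 gene itself held Smarca4, H3K27ac and H3K4me3 regions in both conditions, which does not check the knockdown, because an shRNA acts on the transcript.

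The DNA just before the starts of 5 of the genes is shown because calls there differed between the conditions or were missing. Each stretch holds the 250 bases upstream of the start in the GRCm38 reference (RefSeq), written in the direction of transcription with every CpG in capitals. The stretches lie at chr15:102004483-102004732 (Krt8, minus strand), chr15:102027930-102028179 (Krt18, plus strand), chr2:103423812-103424061 (transcript Elf5-201, plus strand), chr11:57832819-57833068 (Hand1, minus strand) and chr2:9890035-9890284 (upstream start of Gata3, minus strand).
Krt8: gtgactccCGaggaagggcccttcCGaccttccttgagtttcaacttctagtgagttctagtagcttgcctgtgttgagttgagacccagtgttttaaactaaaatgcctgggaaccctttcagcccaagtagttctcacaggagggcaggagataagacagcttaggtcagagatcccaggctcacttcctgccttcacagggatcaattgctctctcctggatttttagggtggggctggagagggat
Krt18: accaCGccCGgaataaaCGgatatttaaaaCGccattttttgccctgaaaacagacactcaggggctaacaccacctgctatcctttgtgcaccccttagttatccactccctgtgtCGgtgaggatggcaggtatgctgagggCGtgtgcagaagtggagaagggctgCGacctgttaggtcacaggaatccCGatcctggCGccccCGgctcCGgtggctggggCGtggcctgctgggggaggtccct
Elf5: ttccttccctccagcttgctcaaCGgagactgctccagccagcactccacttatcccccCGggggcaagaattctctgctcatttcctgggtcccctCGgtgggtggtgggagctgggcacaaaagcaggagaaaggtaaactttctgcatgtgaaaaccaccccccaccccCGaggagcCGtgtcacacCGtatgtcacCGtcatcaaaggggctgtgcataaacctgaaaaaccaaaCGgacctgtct
Hand1: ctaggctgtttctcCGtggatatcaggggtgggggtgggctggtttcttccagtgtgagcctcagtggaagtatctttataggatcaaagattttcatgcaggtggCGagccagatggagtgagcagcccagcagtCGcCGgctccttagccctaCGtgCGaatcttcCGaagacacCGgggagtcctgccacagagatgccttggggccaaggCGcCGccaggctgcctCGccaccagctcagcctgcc
Gata3: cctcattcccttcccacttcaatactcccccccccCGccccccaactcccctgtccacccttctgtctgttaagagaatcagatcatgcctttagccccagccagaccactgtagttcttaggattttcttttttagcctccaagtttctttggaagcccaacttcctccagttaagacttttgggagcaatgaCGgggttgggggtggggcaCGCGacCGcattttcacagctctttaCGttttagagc
The 250 bases held 2 CpG at Krt8, 12 at Krt18, 8 at Elf5, 11 at Hand1 and 6 at the upstream Gata3 start. Over 21911 protein-coding gene symbols the median was 8 (quartiles 3 and 17), so Krt8 lay below the quartiles and the others between them. No exon of another gene overlapped these bases.

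Further stretches come from peaks called in 1 condition alone. The Tfap2c stretch is the central 300 bases of an Ezh2 peak of the kd list just upstream of the gene (chr2:172548818-172549117, plus strand). The Elf5 stretch is a whole Smarca4 peak of the control list inside an intron (chr2:103436018-103436312, plus strand). CpGs are again in capitals.
Tfap2c, Ezh2 after kd: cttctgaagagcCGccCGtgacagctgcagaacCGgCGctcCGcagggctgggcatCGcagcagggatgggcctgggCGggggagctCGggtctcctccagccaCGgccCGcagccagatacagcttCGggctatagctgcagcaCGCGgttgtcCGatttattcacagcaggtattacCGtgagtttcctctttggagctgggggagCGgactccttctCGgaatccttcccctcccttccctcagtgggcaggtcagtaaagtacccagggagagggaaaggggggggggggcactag
Elf5, Smarca4 in control: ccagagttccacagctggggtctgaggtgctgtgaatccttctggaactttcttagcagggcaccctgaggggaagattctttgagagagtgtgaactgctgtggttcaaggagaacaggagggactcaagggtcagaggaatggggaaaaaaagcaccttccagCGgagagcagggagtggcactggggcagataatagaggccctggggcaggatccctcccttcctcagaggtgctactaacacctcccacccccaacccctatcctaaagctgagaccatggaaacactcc
The Tfap2c stretch held 17 CpG and the Elf5 stretch 1. Repeat-masked bases made up 20.0% and 23.1% of them, respectively.

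To see where the antibodies were called, regions were counted in the gene region (from 1 kb upstream of the 5′ end of the gene to its end), in the window (the gene with 20 kb on either side) and within 1 kb of a coding start (the start of any protein-coding transcript of the gene). Smarca4 peaks lay in all 9 gene regions in both conditions, compared with 70.3% of all protein-coding gene regions in control and 71.7% after kd. Ezh2 peaks lay in 7 of the 9 gene regions in control and in 8 after kd, where the background was 12.6% and 15.4%. H3K27me3 islands lay in 9 gene regions in control and 8 after kd, against a background of 42.4% and 35.6%. H3K4me3 islands were found in 5 and 7 (background 63.4% and 68.1%). H3K27ac islands were found in 1 in control and in 0 after kd, whereas 32.4% and 48.2% of all protein-coding gene regions held an island. The 9 genes therefore stood above the background for Ezh2 and H3K27me3 and below it for H3K27ac.

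**Figure D1:**
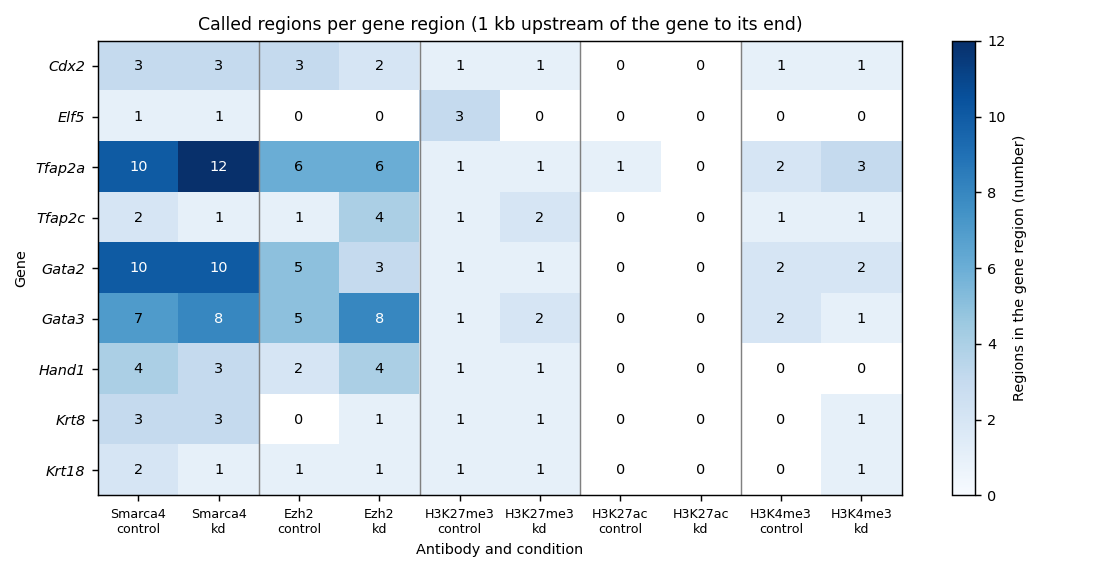
Number of called regions in the gene region of each of the 9 genes (rows) for each antibody in control and kd (columns, 1 library each), with the number in each cell and darker blue for more regions. Smarca4 columns hold no 0, the H3K27ac columns hold a single 1 at Tfap2a in control, and Elf5 has no Ezh2 and no H3K4me3 region.

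H3K27me3 covered most of 8 of the 9 windows in control. It covered 100% of the Cdx2 window, 86.8% of that of Krt18, 86.5% of Tfap2c, 85.8% of Tfap2a, 74.4% of Hand1, 71.5% of Krt8, 69.9% of Gata3 and 66.7% of Gata2, but 14.1% of the Elf5 window. At least 50% of the window was thus covered at 8 of the 9 genes, compared with 11.2% of all protein-coding genes (after kd at 7, compared with 5.35%). After kd, the coverage was 82.4% at Tfap2a, 76.2% at Cdx2, 64.9% at Tfap2c, 62.5% at Krt18, 59.2% at Gata3, 56.1% at Krt8, 55.8% at Hand1, 47.4% at Gata2 and 0% at Elf5. It was lower than in control at 9 of 9 genes, where 49.8% of all protein-coding genes had fewer bases covered. Of the 2467 genes with at least 50% coverage in control, 90.5% had fewer bases covered after kd, so the lower coverage was not particular to the 9 genes. These 2467 genes were picked by their control values, which by itself favours lower values after kd. The kd list was also shorter, with 18320 islands compared with 22909, and the part of either in these values was not tested. With a stricter threshold the values at Gata3 turned round, to 53.2% in control and 59.2% after kd. The median difference between kd and control was -18.9 percentage points over the 8 genes and -21.2 over these 2467 genes.

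At 8 of the 9 genes, all except Elf5, an island lay at a coding start in both conditions. Across all protein-coding genes, 36.8% had an island there in control and 30.9% after kd. At Cdx2, the homeobox gene of the trophectoderm (chr5:147300805-147307270, minus strand), an island of 73.2 kb in control was replaced by islands of 32.8 and 19 kb after kd, and the wider of these still contained the gene. At Gata2 (chr6:88193891-88207032, plus strand), an island of 26.0 kb in control and 25.2 kb after kd lay over the gene, and the difference came from a control island of 35.6 kb downstream, over Dnajb8, which kd islands overlapped only beyond the window. At Tfap2a (chr13:40715302-40738376, minus strand), islands of 53.8 and 49.4 kb lay over the gene, and the share of the window covered differed least among the 9. At Hand1 (chr11:57828705-57832818, minus strand) the islands over the gene measured 20.0 kb in control and 19.2 kb after kd. Its flanks held 4 further islands in control and 1 after kd. Over all 9 windows, 25 distinct islands were called in control and 17 after kd, and 16 of the 17 overlapped a control island (94.1%, compared with 71.1% of the whole list).

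Elf5 (chr2:103411688-103450989, plus strand) stood apart from the other genes in the Ezh2 and H3K27me3 lists. The islands carry the authors' SICER p-value, which sets an island against its background within 1 library and is no test between conditions. In control Elf5 had 3 H3K27me3 islands of 4.6, 5.0 and 1.6 kb, and none was called after kd. The island of 4.6 kb (SICER p-value 4.45e-35) covered the start of Elf5-201, which lies 12374 bp downstream of the 5′ end of the gene record. No Ezh2, H3K4me3 or H3K27ac region was called in its window in either condition. Smarca4 had 1 peak in each list, at different places. The control peak (score 32) lay in an intron and is the Elf5 stretch shown above. The kd peak (score 57, chr2:103424077-103424319) lay just downstream of the start of Elf5-201. Their scores were above those of 9.77% and 43.7% of their lists. Elf5 is also known to be silenced by DNA methylation in embryonic stem cells, which was not measured here.

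**Figure D2:**
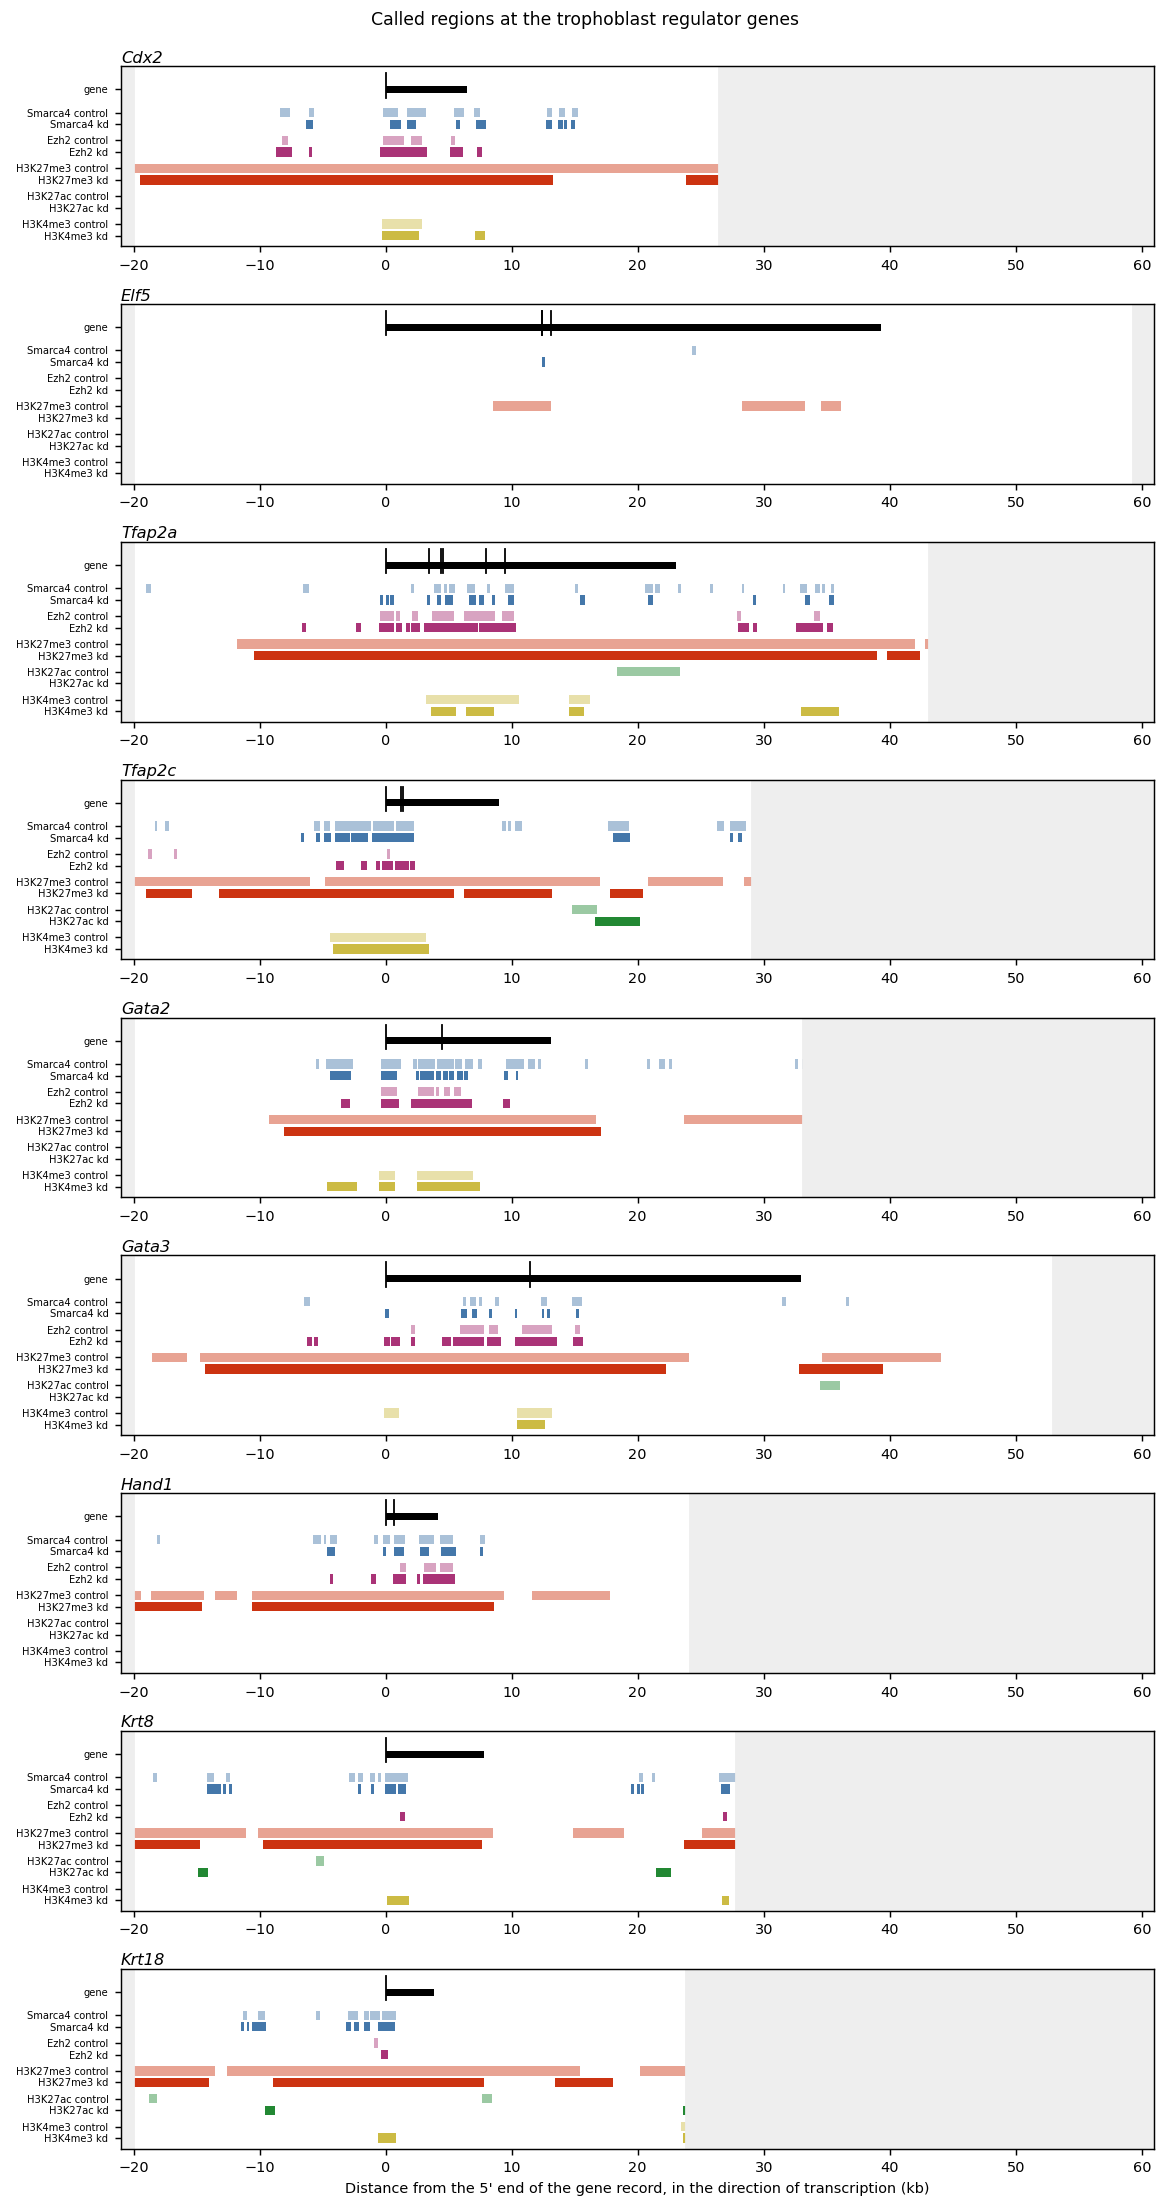
Regions called at each of the 9 genes (panels), drawn to scale against the distance from the 5′ end of the gene record in kb (x axis), with the gene in black, its coding starts as ticks, and each antibody in its own colour, paler for control and full for kd (rows, 1 library each). White marks the window of the gene with 20 kb on either side, where H3K27me3 islands lie over 9 genes in control and 8 after kd, and Ezh2 peaks cluster at the starts.

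Ezh2 peaks covered more bases after kd at 8 of the 9 genes, all except Elf5, which had none. Across all protein-coding genes this was so for 21.5%, among those with an Ezh2 peak in either list for 72.6%, and among the 2467 genes with a wide H3K27me3 domain for 61.4%. Over the 8 genes, the median difference was 6.52 percentage points of the window, compared with 0.582 over the 2467 genes (quartiles 0 and 1.68). The 8 genes also started higher, with a median coverage of 6.403% in control and 12.23% after kd. Over the 2467 genes the medians were 0.422% and 1.201%. Relative to the control median, the kd median was thus higher over the 2467 genes than over the 8. The larger difference in points therefore does not show a stronger relative change at the 8 genes. The peaks of the whole kd list were also wider, with a median of 736 bp compared with 354 bp in control, and the part of this list-wide difference in the values at the 9 genes was not tested.

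The 6 genes of Cdx2, the AP-2, GATA and Hand1 factors carried most of the Ezh2 signal. In their windows Ezh2 covered between 1.53% and 12.2% of the bases in control and between 7.99% and 22.7% after kd. The coverage was 7.29% in control and 14.6% after kd at Cdx2, 12.2% and 22.7% at Tfap2a, 7.28% and 14.3% at Gata2, 7.85% and 14.4% at Gata3, and 5.52% and 10.1% at Hand1. At these 5 genes the kd value was between 1.83 and 2.0 times the control value. Tfap2c had the largest ratio, 5.22, with 1.53% in control and 7.99% after kd. Its control value was 0.502% without repeat-masked regions, and the stricter threshold gave 0.538% and 7.05%. The windows of the keratin genes held little Ezh2, 0% and 1.42% at Krt8 and 0.723% and 1.39% at Krt18.

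The additional bases came from wider peaks at some genes and from further peaks at others. At Cdx2, control peaks of 1673 and 883 bp over the start and the intron corresponded to a kd peak of 3731 bp, with scores of 413, 58 and 704. At Gata2, 4 control peaks between 2.58 and 6.01 kb downstream of its 5′ end corresponded to a kd peak of 4842 bp (score 558). At Gata3 (chr2:9857078-9890034, minus strand), there were 5 control peaks and 10 kd peaks, 5 of them at new places. At Tfap2a, there were 8 control peaks and 12 kd peaks, of which 6 in each list lay in the gene region with its alternative starts, and 2 and 4 beyond its 3′ end. Of the 12, 7 overlapped a control peak. The MACS2 score is not scaled between libraries, so that the scores of control and kd cannot be set against each other.

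Tfap2c (chr2:172549593-172558622, plus strand), the AP-2 factor needed in trophoblast cells, had 1 Ezh2 peak near its start in control, 246 bp wide and with a score of 16. The control peaks further upstream, with scores of 88 and 44, were 91.7% and 99.6% repeat-masked. After kd there were 6 peaks, with scores of 78, 87, 69, 154, 213 and 48, of which 4 lay in the gene region. They spanned from 3.98 kb upstream to 2.36 kb downstream of the start, inside an H3K4me3 island of 7.6 kb that was called in both conditions. The Tfap2c stretch shown above lies between the most upstream of these peaks and the start.

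All Ezh2 peaks in the 9 windows, 29 in control and 45 after kd, overlapped an H3K27me3 island of the same condition. In the whole lists this held for 63.1% of the control and 94.3% of the kd peaks. Of the 45 kd peaks, 25 had no control counterpart, whereas 3 of the 29 control peaks had no kd counterpart. Peaks with a counterpart were thus 44.4% of the kd and 89.7% of the control peaks, compared with 50.6% and 48.8% of the whole lists. Ezh2 and H3K27me3 thus differed in opposite directions at 8 of the 9 genes, more bases for the enzyme and fewer for its mark. Of all protein-coding genes, 21.5% had more Ezh2 bases and 49.8% fewer H3K27me3 bases after kd, each counted by itself. With the stricter threshold, Gata3 had more bases of both after kd. By the methods, though not by the labels, the Ezh2 and H3K27me3 libraries were prepared in different places, and the part of this in the result was not tested.

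**Figure D3:**
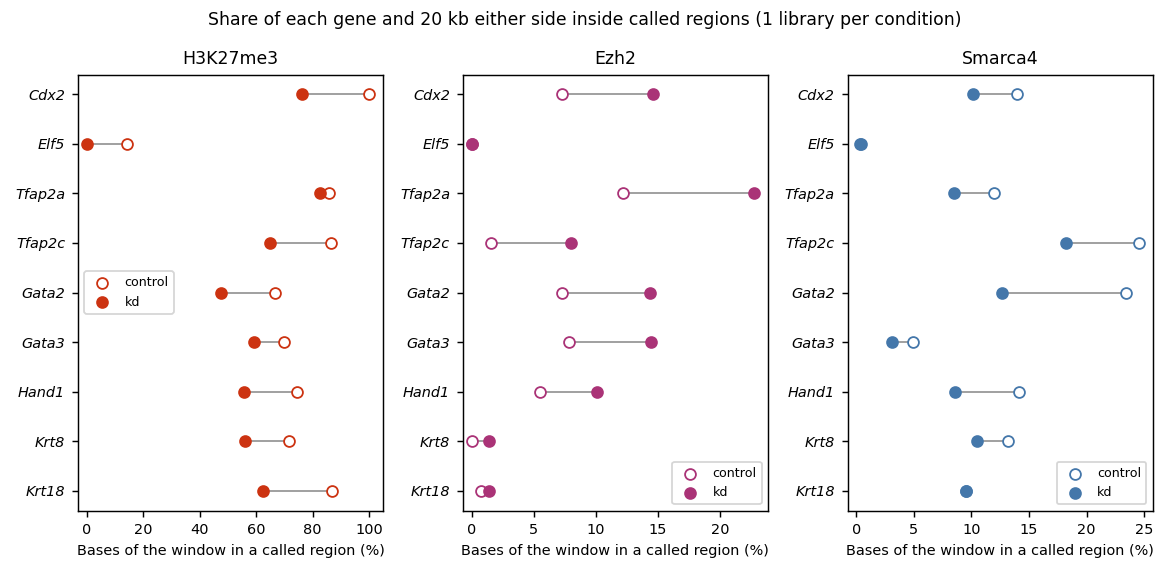
Share of the bases of each gene with 20 kb on either side (x axis, %) inside H3K27me3 islands, Ezh2 peaks and Smarca4 peaks (panels) in control (open circles) and kd (filled circles), 1 library each, without error bars. H3K27me3 values lie lower after kd at all 9 genes, Ezh2 values lie higher at 8 and at 0 for Elf5, and the scales of the x axes differ between panels.

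Smarca4 peaks numbered 95 in control and 74 after kd in the 9 windows, and 52 of the control and 58 of the kd peaks overlapped a peak of the other condition (54.7% and 78.4%, compared with 56.1% and 64.4% of the whole lists). The window count was 18 in control and 11 after kd at Gata2, 20 and 15 at Tfap2a, 13 and 9 at Tfap2c, 10 and 6 at Hand1, and 9 and 8 at Gata3. It was equal in both conditions at Cdx2 (9), Krt8 (11), Krt18 (7) and Elf5 (1). Fewer peaks after kd were thus found at 5 genes (background 32.8%) and more at 0 (background 32.6%). The peaks covered fewer bases after kd at 8 of 9 genes, compared with 49.1% of all protein-coding genes and 73% of those with a wide H3K27me3 domain. The largest difference was at Gata2, with 23.5% of the window in control and 12.6% after kd, and at Krt18 the values were equal to 3 digits (9.54%).

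At Gata2, the factor shared by trophoblast and blood cells, 8 peaks of the control list (scores between 20 and 119) lay 11.3 to 33.3 kb downstream of the 5′ end, whereas the most distal kd peak ended 10.5 kb downstream. At Tfap2c a control peak of 2836 bp upstream of the gene (score 311) corresponded to kd peaks of 1209 and 1319 bp (scores 230 and 226). At the same gene, the control peaks of 1686 and 1479 bp around the start corresponded to a kd peak of 3344 bp. In the opposite direction, Tfap2a had 10 gene-region peaks in control and 12 after kd, and Gata3 had 7 and 8. At the 5′ end of the Tfap2a gene record, the start of Tfap2a-203, 3 Smarca4 peaks were called after kd (scores 68, 49 and 49) and none in control, while Ezh2 was called there in both conditions.

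A larger share of the Smarca4 peaks overlapped an Ezh2 peak after kd. In control, 27 of the 95 Smarca4 peaks (28.4%) did so, and after kd 46 of 74 (62.2%). In the whole lists the shares were 4.21% and 8.32%. Counted from the Ezh2 peaks, the share went the other way. Of these, 23 of 29 (79.3%) overlapped a Smarca4 peak in control and 31 of 45 (68.9%) after kd, where the whole lists gave 44.5% and 86.6%. At Gata2 the numbers were 4 of 18 in control and 10 of 11 after kd, at Tfap2a 8 of 20 and 13 of 15, and at Gata3 6 of 9 and 8 of 8. H3K27me3 islands contained or touched 85 of the 95 control peaks and 62 of the 74 kd peaks (89.5% and 83.8%), compared with 34.6% and 24.4% of the whole lists. By contrast, 3.16% and 2.70% overlapped an H3K27ac island, where the whole lists gave 23.2% and 40.8%.

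H3K4me3 divided the genes into those with an island at a coding start in both conditions, those with one after kd alone, and those with none. Cdx2, Tfap2a, Tfap2c, Gata2 and Gata3 had one in both, Krt8 and Krt18 after kd alone, and Elf5 and Hand1 in neither. Starts with H3K4me3 were 5 of 9 genes in control and 7 after kd (background 59.3% and 63.3%). All of these starts also held H3K27me3, so that 5 genes were bivalent in control and 7 after kd, compared with 23.7% and 23.8% of all protein-coding genes. An island after kd alone was found at 2 of the 9 genes and at 4.69% of all protein-coding genes. Among the 2890 genes with H3K27me3 but no H3K4me3 at a start in control, it was found at 28.7%. These included 4 of the 9 genes (Elf5, Hand1, Krt8 and Krt18). With a stricter p-value threshold, 3 of the 9 gene regions held an island in control and 7 after kd, and an island at a start after kd alone was then found at 5 genes, Cdx2, Tfap2a, Gata2, Krt8 and Krt18.

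Krt8 (chr15:101996698-102004482, minus strand) and Krt18 (chr15:102028180-102032027, plus strand) have starts 23.7 kb apart and windows that share 16.3 kb. At Krt8 the kd island was 1.8 kb wide (p-value 2.03e-23) and reached from 82 to 1881 bp downstream of the start. At Krt18 it was 1.4 kb wide (p-value 1.09e-46) and reached from 579 bp upstream to 820 bp downstream. These p-values were smaller than those of 27.8% and 44.0% of the kd islands, so neither island was at the edge of the list. Both genes had Smarca4 at the start in control and kd. The highest Smarca4 scores in their whole windows were 190 in control at each, and 215 at Krt8 and 113 at Krt18 after kd. Both starts lay in H3K27me3 islands in both conditions (28.0 and 16.8 kb at Krt18, 18.6 and 17.4 kb at Krt8).

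Ezh2 was called differently at the partner genes. At Krt18 the control peak (score 194) lay upstream of the start, and the kd peak (score 69) reached from 406 bp upstream to 201 bp downstream, with no overlap between them. At Krt8 there was no control peak, and kd peaks lay 1146 to 1551 bp downstream of the start (score 62), in an intron, and 26.8 kb downstream (score 78). Each kd peak at Krt8 overlapped an H3K4me3 island called after kd alone.

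At the starts with H3K4me3 in both conditions, the islands had smaller p-values in the kd list, which was also the longer one. At Cdx2 the island had a SICER p-value of 1.40e-15 in control and 1.79e-59 after kd, smaller than the p-values of 14.1% and 48.9% of its list. At Gata2 the island over the downstream start had p-values of 8.98e-19 and 3.28e-76 (20.6% and 54.4% of the lists). At Tfap2c, which had the widest island, it had a p-value of 3.60e-189 in control and was listed at 0 after kd. At Gata3 the island over the start of Gata3-201 had p-values of 3.04e-49 and 7.07e-61. At Tfap2a an island of 7.4 kb with a p-value of 1.17e-14 in control corresponded to islands of 2.2 and 2.0 kb with p-values of 3.68e-65 and 6.05e-39. The kd list was longer, with 33506 islands compared with 26130, and read depth, which would move these p-values, is unknown for both libraries.

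Gata3, an early trophectoderm factor, showed the reverse at its upstream start. There an H3K4me3 island of 1.2 kb was called in control alone (p-value 2.20e-12, smaller than the p-values of 5.61% of its list). A Smarca4 peak of 323 bp (score 57) and Ezh2 peaks of 443 and 751 bp (scores 95 and 69) were called there after kd alone. The Gata3 stretch shown above is the DNA before this start. The main start, that of Gata3-201, lies 11434 bp further downstream and held H3K4me3, H3K27me3, Ezh2 and Smarca4 in both conditions. Over the 9 windows H3K4me3 islands numbered 9 in control and 15 after kd, and 8 and 15 of them overlapped a Smarca4 peak (88.9% and 100%, compared with 61.4% and 69.1% of the whole lists). Islands after kd alone also lay 4.69 to 2.29 kb upstream of the Gata2 5′ end and 33 to 36 kb from the 5′ end of the Tfap2a record, beyond its 3′ end.

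H3K27ac islands were rare at these genes. None lay at a coding start in either condition, although 17.3% of all protein-coding genes had one there in control and 32.8% after kd. Among the 2467 genes with a wide H3K27me3 domain the shares were 3.81% and 18.6%. In the windows there were 5 islands in control and 4 after kd, with p-values smaller than those of 16.5% and 18.6% of the lists at the median. The widest control island, 5.0 kb (p-value 1.58e-16), lay over the 3′ end of Tfap2a, mostly inside the gene, and had no kd counterpart. The widest kd island, 3.6 kb (p-value 1.49e-12), lay 16.6 to 20.2 kb downstream of the Tfap2c start and overlapped a control island of 2.0 kb. Of the control islands 2, and of the kd islands 3, were at least 50% repeat-masked.

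Sequence features that did not enter the choice of genes were compared next. The ratio of observed to expected CpG was taken within 500 bp on either side of each coding start, and the highest value of a gene was kept. This ratio was 1.04 at Tfap2a, 0.909 at Tfap2c, 0.767 at Gata2, 0.638 at Gata3, 0.637 at Cdx2, 0.546 at Krt18, 0.404 at Elf5, 0.386 at Hand1 and 0.378 at Krt8. The median of all protein-coding genes, taken in the same way, was 0.614. The 4 genes without H3K4me3 at a coding start in control were the 4 with the lowest ratios, and the 5 genes with it had the 5 highest. This order depended on the threshold. With the stricter one, Tfap2a, Gata2 and Cdx2 had no H3K4me3 at a coding start in control, and only Tfap2c and Gata3 did. In 6 of the genes (Elf5, Tfap2a, Tfap2c, Gata2, Gata3 and Hand1) further coding starts lie downstream of the 5′ end of the record. The ratio describes their start with the highest value, and genes with more starts have more chances of a high one.

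**Figure D4:**
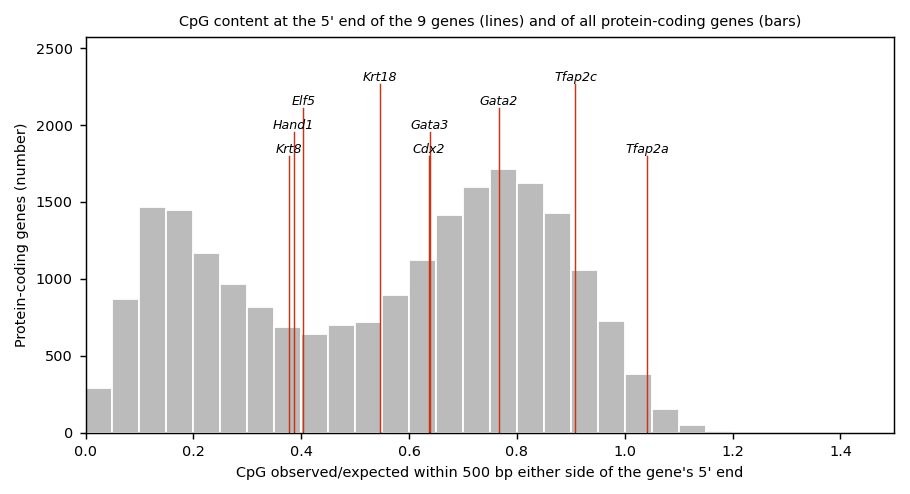
Histogram of the observed to expected CpG ratio within 500 bp on either side of the coding start with the highest ratio, for all protein-coding genes (x axis, grey bars, number of genes on the y axis), with a red line for each of the 9 genes. The labels in the figure name the 5′ end, but the values are those of these starts. Krt8, Hand1 and Elf5 lie between 0.378 and 0.404, in the dip between the humps of the histogram, and Tfap2a lies at 1.04.

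The middle 500 bp of each Smarca4 and Ezh2 peak was searched for short motifs on either strand. The letters searched were GCCNNNGGC for AP-2 factors, AGATAA for GATA factors, GGAATG for Tead factors and the octamer ATGCAAAT of Pou5f1. The AP-2 letters were found in 31.6% of the 95 Smarca4 peaks in control and 32.4% of the 74 after kd, compared with 24.1% and 27.1% of all Smarca4 peaks. The Tead letters were found in 31.6% and 24.3% (all peaks 24.0% and 21.5%), the GATA letters in 11.6% and 6.76% (15.1% and 13.9%), and the octamer in 2.11% and 0% (2.44% and 1.72%). Of the 29 Ezh2 peaks in control and 45 after kd, 37.9% and 37.8% held the AP-2 letters (all Ezh2 peaks 26.2% and 48.2%), 31.0% and 24.4% the Tead letters (14.2% and 14.8%), 6.90% and 13.3% the GATA letters (11.5% and 6.88%), and 0% and 2.22% the octamer (1.28% and 1.27%). For AP-2 and GATA, the order of these peaks and of all Ezh2 peaks thus turned between control and kd. In the 250 bases before the starts, Krt18 held 1 match to the AP-2 letters, found before 14.5% of all genes, Krt8 held 1 to the GATA letters (9.12%) and Gata3 1 to the Tead letters (11.5%). None of the 4 motifs was found in the Elf5 and Hand1 stretches.

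Other genes of the lineage were taken from a list of 18. Of these, 11 held Smarca4 at a coding start in control and 11 after kd (background 65.5% and 66.4%), 5 and 8 held Ezh2 (8.11% and 13.9%), 11 and 10 H3K27me3 (36.8% and 30.9%), 7 and 10 H3K4me3 (59.3% and 63.3%), and 1 and 1 H3K27ac (17.3% and 32.8%). H3K4me3 was called after kd alone at Krt7, Krt19 and Dlx3, and at none in control alone. Krt7 and Krt19 are further keratins of simple epithelia, with kd islands of 1.4 kb (p-value 1.63e-29) and 1.0 kb (p-value 3.53e-33). With Krt8 and Krt18, all 4 of these keratin genes thus had H3K27me3 and Smarca4 at a start in both conditions and H3K4me3 after kd alone. Krt7 and Krt19 were named because this call differed. Of all genes with H3K27me3 but no H3K4me3 at a start in control, 28.7% had H3K4me3 there after kd. The islands lay 1158 to 2557 bp (Krt7) and 2665 to 3664 bp (Krt19) downstream of the 5′ ends, so the marks need not lie at the same start. Dlx3, a homeobox factor of the placenta, had a kd island of 2.0 kb (p-value 1.57e-35) and Ezh2 in both conditions.

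Ezh2 was called after kd alone at Tead4, Id2 and Krt7, with the highest score at Tead4 (464), the factor upstream of Cdx2 in the early embryo. Eomes, Esx1, Ascl2 and Fgfr2 had Ezh2, H3K27me3 and H3K4me3 at a start in both conditions, as did Cdx2, the AP-2 and the GATA genes. Ets2 had H3K27me3 in control alone (5.2 kb, p-value 1.93e-20). Gcm1, Tpbpa, Prl3d1, Prl3b1, Ctsq and Synb, which act in differentiated placental cells, had no region of any list in their gene regions. Fgfr2 was the gene with H3K27ac at a start, and its gene record is unusually long, so its calls at alternative starts stand further apart than those of the others.

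The 12 paralogues of the 9 genes were compared in the same way, against the same background. H3K27me3 lay at a coding start of 10 in both conditions (background 36.8% and 30.9%). Ezh2 lay at one of 7 in control and 9 after kd (8.11% and 13.9%), and H3K4me3 at one of 4 and 7 (59.3% and 63.3%). Cdx1, Cdx4 and Gata4 had H3K4me3 after kd alone. H3K27ac lay at a start of Cdx4 (1.0 kb, p-value 1.67e-06) and Hand2 (2.0 kb, p-value 6.00e-09) after kd alone. Hand2 had H3K4me3 at a start in both conditions, unlike Hand1. Elf3 and Ehf, the epithelial relatives of Elf5, had neither Ezh2 nor H3K27me3 at a start.

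**Figure D5:**
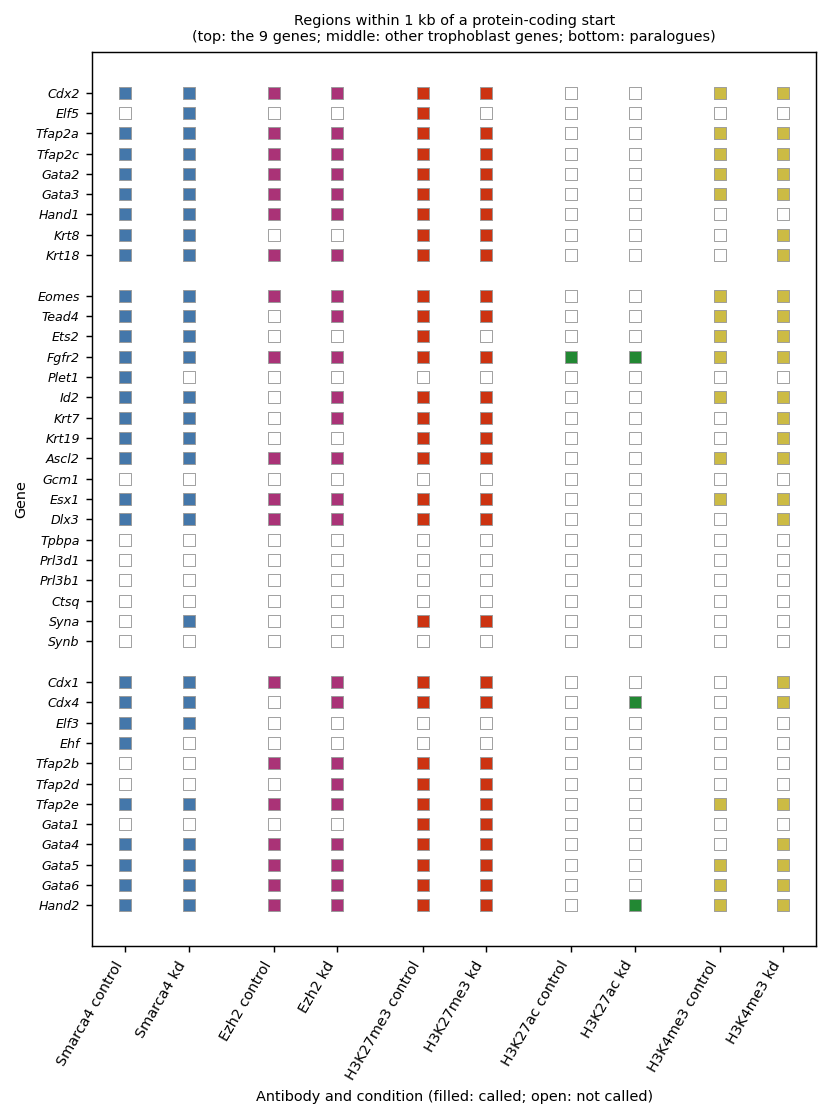
Calls within 1 kb of a protein-coding start (filled squares, called; open squares, not called) for the 9 genes, 18 other trophoblast genes and 12 paralogues (rows) in the 10 lists (columns, 1 library each). In the H3K4me3 columns Krt8, Krt18, Krt7, Krt19, Dlx3, Cdx1, Cdx4 and Gata4 are filled after kd and open in control, and 6 of the 18 other trophoblast genes are open in all columns.

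The protein-coding genes most like each of the 9 were sought by the percentage of bases covered in the 10 lists within 20 kb on either side of the 5′ end, leaving out genes within 100 kb. Likeness was the Euclidean distance over these 10 values, and the values of a gene share their libraries. The nearest gene was Mnx1 for Cdx2 (distance 10.3 percentage points), Irx5 for Gata2 (9.26), Pitx1 for Gata3 (9.64), Tbx2 for Tfap2a (11.5), Irx4 for Hand1 (11.7) and Gbx1 for Krt8 (8.21). For Tfap2c it was Spem1 (10.8) and for Krt18 it was Ltbr (7.11). The median distance of all genes lay between 91.1 and 124 for these 8. For Elf5, whose values were nearly all 0, several genes were at the same distance of 0.607, Myoc among them.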

How the data were processed

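Per the labels and methods, the authors aligned trimmed reads to mm10 with Bowtie2 and kept unique alignments with SAMtools 1.9. The authors called Smarca4 and Ezh2 peaks with MACS2, whose deposited score was used here, and histone mark islands by SICER (windows of 200 bp, gaps of 600 bp), whose deposited p-value was at most 1e-05 for H3K27ac and 1e-10 for the others. The methods name input as the background, whereas the labels of those samples name IgG, so the background is uncertain. Scores and p-values are not scaled between libraries and served to order regions within a list. No read counts are given and depth is unknown.

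Regions were intersected with gene models of GENCODE M21 in Python 3.11.15 with pandas 2.3.3, asking for an overlap of at least 1 bp. A region was shared when it overlapped one of the other condition. Counting of overlaps was tested on simulated data. Repeat masking was read from the lower case of the GRCm38 sequence. The genes and lists were chosen with earlier results of these data known. Genes named are the 9, those listed genes whose calls at a start differed or were missing, and the nearest genes by coverage. The alternatives were a stricter threshold (MACS2 score from 50 upwards, -log10 of the p-value from 10 upwards for H3K27ac and from 20 upwards for H3K27me3 and H3K4me3), other gene regions, windows and overlaps, merging, lists of equal length and leaving out repeat-masked regions. The counts at any coding start, the counts of genes with fewer or more bases covered and those of starts called after kd alone were tried under alternatives chosen after seeing the data.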

Additional observations from a re-analysis of the deposited data

How the results depend on the processing

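Of 122 alternative counts, 105 stayed within 1.5 times the reported count and 17 moved further. Merging regions within 1 kb gave 46 Smarca4 peaks in control and 36 after kd in the 20 kb windows, and 19 and 26 Ezh2 peaks. The stricter threshold gave 46 Smarca4 peaks after kd, 3 H3K4me3 islands in control, and 1 H3K27ac island in control and 1 after kd. It also left 3 genes with H3K4me3 in the gene region in control and gave 5 genes with H3K4me3 at a start after kd alone. A 10 kb window held 15 H3K27me3 islands in control and 2 H3K27ac islands after kd. Lists of equal length left 1 H3K27ac island after kd. Without repeat-masked regions, 3 H3K27ac islands remained in control and 1 after kd. With 1 kb either side of the TSS, or of any coding transcript start (chosen after seeing the data), 0 genes had H3K27ac in control. The direction between control and kd was as reported in 47 of 55 comparisons of these counts. In the others the alternative counts were equal, or the reported counts were (9 genes with Smarca4 in both conditions, but 8 and 9 with the stricter threshold, 6 and 8 around the TSS, and 8 and 9 around any coding start). The cause of these shifts was not tested beyond what each alternative leaves out or joins. No leave-one-out was possible with 1 library per antibody and condition. No paired analysis was possible because the groups share no replicate numbers beyond that library. Depth limits every missing call and is unknown.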
